A study of Mus musculus with 12 samples.

Results

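The genes described here are 9 regulators and effectors of apoptosis and of the p53 response: *Bax*, *Bak1*, *Bbc3*, *Pmaip1*, *Casp9*, *Bcl2*, *Bcl2l1*, *Mcl1* and *Cdkn1a*. They were taken by name, and all 9 were found among the 20620 gene rows of the count table. Total RNA and the mRNA fragments covered by ribosomes (footprints) were profiled in whole C57BL/6 testes at postnatal day 16 (P16). The mice were either *Mael*+/- or *Mael*-/-, with 3 biological replicates per genotype and assay, hence 12 libraries. *Mael* encodes Maelstrom, a protein of the piRNA pathway that silences transposons in male germ cells. The *Mael*+/- controls carry 1 mutant allele as well, so no wild-type testis was included. All testes were placed in cycloheximide, which holds ribosomes on the mRNA, and the RNA and footprints of a replicate came from the same extract. Whether an extract came from 1 animal is not given in the sources used here.

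Apoptosis through mitochondria is decided by the balance among proteins of the BCL-2 family. BAX and BAK open pores in the outer mitochondrial membrane, BCL-2, BCL-XL and MCL-1 hold them in check, and small BH3-only proteins such as PUMA and NOXA relieve that check. Cytochrome c released through the pores then lets APAF1 activate caspase-9. The transcription factor p53 raises several of these genes, together with the cell cycle inhibitor p21, when DNA is damaged. In the testis, germ cells that fail in meiosis are removed by apoptosis, and *Bax* is needed for the death of germ cells in the first wave of spermatogenesis.

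None of the 9 genes was called between *Mael*-/- and *Mael*+/- testes in RNA, in footprints or in the ratio between them, at an adjusted p under 0.05. Few genes were called at all: 0.116% of those tested in RNA, 0.0593% in footprints and 0% in the ratio. In RNA, every one of the 9 had a 95% confidence interval within a 2-fold difference in either direction, as did 88.6% of all genes. The lowest level relative to *Mael*+/- testes in either assay was that of *Bbc3* footprints, at 0.628-fold (95% interval 0.442 to 0.890). It did not pass the adjustment over all genes. The most unusual value was shared by both genotypes: the ratio of footprints to RNA, each per length, was 9.0 times that of the median gene for *Cdkn1a* in *Mael*+/- testes, at the 99.6th percentile of 13380 genes.

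RNA libraries held 13697267 to 27462358 gene counts and footprint libraries 7609932 to 13233565. Levels are given in CPM, the share of a library's gene counts after TMM scaling within an assay. *Mael* had 5045, 4314 and 3800 RNA counts in *Mael*+/- libraries and 1, 2 and 0 in *Mael*-/- libraries. Its footprint counts were 1294, 660 and 863 against 0, 0 and 7. The libraries held markers of Sertoli cells, Leydig cells, spermatogonia and spermatocytes. *Mael*+/- extract 1 stood apart, since its 12 pachytene spermatocyte markers summed to 921 CPM in RNA, whereas the other 5 RNA libraries had 291 to 373 CPM. In RNA, the 9 pachytene markers tested were all below 0 in log2 fold change (*Mael*-/- over *Mael*+/-), with a median of -1.08 and 0 called by edgeR. In footprints, 7 of 7 were below 0. Without extract 1, an alternative added after seeing the data, these medians were -0.43 in RNA (8 of 9 below 0, *Hspa2* called) and -0.26 in footprints (6 of 7 below 0, 0 called). Early meiotic markers, at 1925 CPM in extract 1 and 801 to 1199 CPM in the other RNA libraries, had medians of -0.29 in RNA and -0.45 in footprints, and of 0.26 (*Meiob* called) and 0.04 without that extract. The 5 macrophage markers tested were all above 0 in both assays, with a median of 0.31 in RNA. Their sums overlapped, at 182 to 196 CPM in *Mael*-/- and 119 to 200 CPM in *Mael*+/- RNA libraries. Footprint sums overlapped as well, at 194 to 248 against 123 to 249 CPM. Without extract 1, 4 were above 0 and 1 below in each assay, with medians of 0.22 and 0.16. The 4 peritubular myoid markers were above 0 in both assays as well, with medians of 0.19 and 0.22 and 0 called. Their RNA sums were 922 to 975 CPM in *Mael*-/- against 824 to 860 CPM in *Mael*+/- libraries. Their footprint sums overlapped, at 1310 to 1610 CPM against 1091 to 1329 CPM. In whole testis, fewer cells of a type and less RNA per cell cannot be told apart, and the part of cell composition in the values below was not tested.

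The letters of the promoters were read in a window from 250 bases before to 50 bases after each RefSeq transcription start of the mouse build GRCm38.p6 (mm10). The p53 decamer, the short motif of which p53 binds paired copies, was searched on both strands, where it reads the same. It was present in 2 of the 13 windows of the 9 genes (15.4%), those of *Bax* and *Cdkn1a*, and in 2745 of all 32851 windows (8.36%). The matches are shown because p53 raises several of these genes, with the decamer in capitals and 10 bases on either side. That of *Bax* lies at chr7:45467080-45467109 on the minus strand. Those of *Cdkn1a* lie at chr17:29090896-29090925 and chr17:29090918-29090947 on the plus strand, before the upstream of its annotated starts. A match is a description of the letters and does not show binding.
*Bax*: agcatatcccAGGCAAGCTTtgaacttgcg
*Cdkn1a*, first match: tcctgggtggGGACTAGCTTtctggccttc
*Cdkn1a*, second match: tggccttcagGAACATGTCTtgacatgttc

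The 9 genes covered a wide range of RNA levels, which are compared here as CPM per kb of annotated mRNA (mean ± SD, n = 3). In *Mael*+/- testes the pore former *Bax* was the most abundant, at 66.5 ± 2.13, followed by the pro-survival genes *Mcl1*, at 56.1 ± 3.62, and *Bcl2l1*, at 28.2 ± 2.73. *Casp9* followed, with replicates from 15.7 to 16.3, and *Bak1* with 10.6 ± 1.33. The 4 lowest genes were *Pmaip1* (2.92 ± 0.464), *Bbc3* (2.07 ± 0.453), *Bcl2* (1.51 ± 0.141) and *Cdkn1a* (1.08 ± 0.255). The order was the same in *Mael*-/- testes. *Pmaip1* and *Bbc3* were the only neighbours in the order of RNA levels whose replicates overlapped, and only in *Mael*+/- libraries.

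The order changed in footprints, compared as CPM per kb of coding sequence. *Mcl1* came first in *Mael*+/- testes with 176 ± 7.03, and *Bax* second with 124 ± 16.3. *Bcl2l1* had 51.1 ± 8.42 and *Casp9* 30.1 ± 1.97. *Cdkn1a*, last in RNA, was sixth at 17.4 ± 1.18, and its replicates overlapped those of *Bak1* above it (20.6 ± 4.71) and of *Pmaip1* below it (12.8 ± 5.51). *Bbc3*, at 8.22 ± 1.24, overlapped with *Pmaip1* in turn, and *Bcl2* was last at 3.60 ± 0.782. *Mael*-/- testes had the same order of footprint levels, with *Bak1* and *Cdkn1a* again overlapping.

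**Figure D1:**
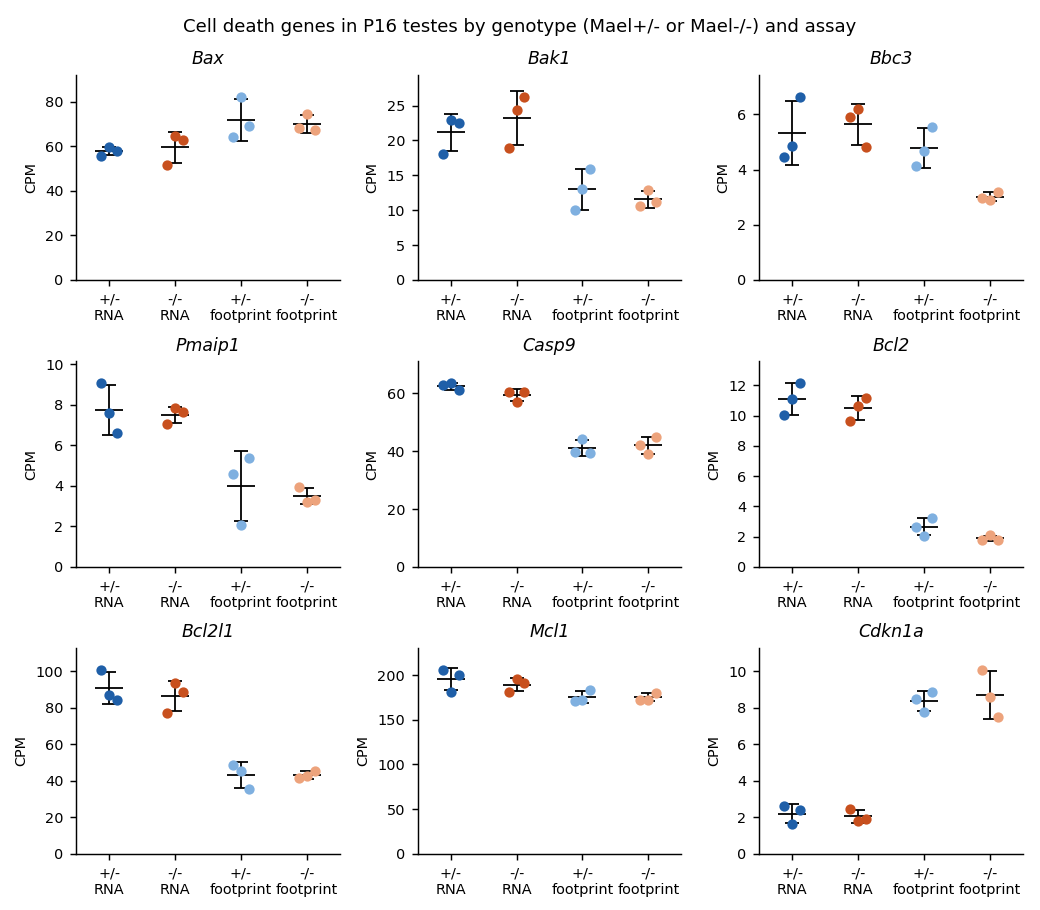
RNA and footprint levels of the 9 genes in CPM on a linear axis from 0, with 1 point per library, horizontal bars at the mean of 3 and error bars of 1 SD; groups are *Mael*+/- and *Mael*-/- testes in each assay. The genotypes overlap in every panel and assay except for *Casp9* in RNA and *Bbc3* in footprints, where all *Mael*-/- points are below all *Mael*+/- points. Of all genes tested, 10.3% had no overlap in RNA and 9.09% in footprints.

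The first question was whether loss of *Mael* altered the RNA of these genes. edgeR called 0 of the 9 at an adjusted p under 0.05, against 17 of all 14685 genes tested (0.116%). An unadjusted p under 0.05 was reached by 0 of the 9, with 5.40% of all genes. DESeq2 and limma voom also called 0 of the 9, with 58 and 20 of all 14685 genes called. They found 0 of the 9 at an unadjusted p under 0.05, beside 728 and 679 of all genes. Replicates of the genotypes did not overlap for 1 of the 9, *Casp9*, where 10.3% of all genes had no overlap. In log2 fold change, 3 genes were above 0 and 6 below, with a median of -0.04 beside 0.00 for all genes.

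The BAX and BAK pore formers were at similar RNA levels in both genotypes. *Bax* (chr7:45461695-45466898, minus strand) had 55.9, 59.5 and 58.0 CPM in *Mael*+/- libraries and 51.5, 64.5 and 62.6 CPM in *Mael*-/- libraries. The *Mael*-/- values lay on both sides of all *Mael*+/- values. The log2 fold change was 0.04 (SE 0.10, 95% interval -0.19 to 0.28), with an adjusted p of 0.985 in edgeR. *Bak1* (chr17:27019812-27028627, minus strand) had 18.1, 22.9 and 22.5 CPM in *Mael*+/- RNA and 18.9, 24.4 and 26.3 CPM in *Mael*-/- RNA. Replicate 1 was the lowest of its group in both genotypes, and the groups overlapped. *Bak1* had the largest RNA estimate of the 9, a log2 fold change of 0.14 (SE 0.15, interval -0.20 to 0.47).

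In footprints, *Bax* had 64.0, 82.4 and 69.3 CPM in *Mael*+/- libraries and 68.4, 74.7 and 67.4 CPM in *Mael*-/- libraries, with a log2 fold change of -0.03 (SE 0.11). *Bak1* had 9.97, 13.1 and 15.9 CPM against 10.6, 12.9 and 11.2 CPM, with a log2 fold change of -0.17 (SE 0.19). For both genes the *Mael*-/- footprint values fell inside the range of the *Mael*+/- values.

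*Bbc3* and *Pmaip1* encode PUMA and NOXA, the BH3-only proteins best known as p53 targets. *Bbc3* (chr7:16309583-16318334, plus strand) had 4.46, 4.86 and 6.65 CPM in *Mael*+/- RNA and 5.90, 6.20 and 4.81 CPM in *Mael*-/- RNA, from 81 to 176 counts per library. The groups overlapped, and the log2 fold change in RNA was 0.07 (SE 0.21, interval -0.38 to 0.53). *Pmaip1* had 9.06, 7.61 and 6.61 CPM in *Mael*+/- RNA and 7.06, 7.83 and 7.62 CPM in *Mael*-/- RNA. All 3 *Mael*-/- values of *Pmaip1* lay inside the *Mael*+/- range, at a log2 fold change of -0.04 (SE 0.16).

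Footprints of *Bbc3* gave the lowest estimate among the 9 genes. They numbered 39, 36 and 57 counts in *Mael*+/- libraries, or 4.14, 4.66 and 5.56 CPM. In *Mael*-/- libraries there were 39, 29 and 27 counts, or 2.95, 2.89 and 3.20 CPM. Every *Mael*-/- value was below every *Mael*+/- value. The log2 fold change was -0.67 (SE 0.23, interval -1.18 to -0.17), with an unadjusted p of 0.0138 and an adjusted p of 0.998 in edgeR. Leaving out *Mael*+/- footprint replicate 3, the highest of the 6, gave a log2 fold change of -0.54 and an unadjusted p of 0.0535. *Bbc3* was the 1 gene of the 9 with an unadjusted p under 0.05 in footprints, and 4.33% of all genes had one.

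Over the 6 libraries, footprints of *Pmaip1* varied more between replicates than those of any other member. *Mael*+/- libraries held 43, 16 and 55 counts, or 4.56, 2.07 and 5.36 CPM. The *Mael*-/- libraries had 3.94, 3.19 and 3.32 CPM, all inside the *Mael*+/- range. The log2 fold change was -0.21 (SE 0.32), and its interval, from -0.92 to 0.49, reached down to 0.529-fold.

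Among the pro-survival genes, *Bcl2* (chr1:106538176-106714290, minus strand) had 10.1, 11.1 and 12.1 CPM in *Mael*+/- RNA and 9.61, 10.7 and 11.2 CPM in *Mael*-/- RNA. The groups overlapped, with a log2 fold change of -0.08 (SE 0.14). Its footprints were the sparsest of the 9, with 15 to 33 counts per library. They came to 2.65, 2.07 and 3.22 CPM in *Mael*+/- libraries and 1.74, 2.10 and 1.78 CPM in *Mael*-/- libraries. Only *Mael*-/- replicate 2 reached into the *Mael*+/- range. The log2 fold change in footprints was -0.52 (SE 0.28, interval -1.14 to 0.11), with an adjusted p of 0.998 in edgeR.

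*Bcl2l1*, which encodes BCL-XL (chr2:152758732-152831728, minus strand), had 100.6, 87.2 and 84.1 CPM in *Mael*+/- RNA and 77.1, 93.6 and 88.4 CPM in *Mael*-/- RNA. Its log2 fold change was -0.07 (SE 0.11) in RNA and 0.00 (SE 0.13, interval -0.29 to 0.29) in footprints, where *Mael*+/- libraries had 48.9, 45.5 and 35.2 CPM and *Mael*-/- libraries 41.4, 42.7 and 45.4 CPM. The *Mael*-/- footprint values lay inside the *Mael*+/- range. *Mcl1*, a short-lived pro-survival protein's gene (chr3:95658721-95663179, plus strand), had 206, 181 and 200 CPM in *Mael*+/- RNA and 181, 196 and 192 CPM in *Mael*-/- RNA. In footprints, *Mcl1* had 171.6, 172 and 184 CPM against 172, 173 and 180.2 CPM. These were the tightest footprint values of the 9 genes, and the groups overlapped in both assays. The log2 fold change of *Mcl1* was -0.04 (SE 0.08) in RNA and -0.01 (SE 0.09, interval -0.20 to 0.19) in footprints.

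*Casp9*, the initiator caspase of the mitochondrial pathway (chr4:141793612-141815978, plus strand), had 63.0, 63.5 and 61.0 CPM in *Mael*+/- RNA and 60.6, 57.2 and 60.5 CPM in *Mael*-/- RNA. All *Mael*-/- values were lower, by little: the highest of them was 60.6 CPM and the lowest *Mael*+/- value 61.0 CPM. The log2 fold change was -0.07 (SE 0.08, interval -0.26 to 0.11), with an adjusted p of 0.982 in edgeR. Footprints of *Casp9* did not share the order, with 39.8, 44.2 and 39.4 CPM in *Mael*+/- libraries and 42.0, 39.1 and 45.1 CPM in *Mael*-/- libraries. Their log2 fold change was 0.03 (SE 0.11). The exons of *Casp9* share 102 bases (2.62%) with those of *Cela2a*, and reads from these bases may not be assigned to either gene.

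*Cdkn1a* encodes p21, which stops the cell cycle by inhibiting cyclin-dependent kinases and is the most widely used readout of p53 activity. It lies at chr17:29090979-29100722 on the plus strand. Its RNA was sparse, with 34 to 63 counts per library. That came to 2.60, 1.61 and 2.38 CPM in *Mael*+/- libraries and 2.47, 1.78 and 1.90 CPM in *Mael*-/- libraries. All 3 *Mael*-/- values lay inside the *Mael*+/- range, and the log2 fold change was -0.11 (SE 0.27, interval -0.71 to 0.49). Footprints were more numerous, at 8.48, 7.76 and 8.88 CPM in *Mael*+/- libraries and 10.1, 8.58 and 7.47 CPM in *Mael*-/- libraries. The *Mael*-/- footprint values reached beyond the *Mael*+/- range at both ends, with a log2 fold change of 0.06 (SE 0.18, interval -0.33 to 0.45).

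In footprints as a whole, edgeR called 0 of the 9 genes, with 8 of all 13500 genes called (0.0593%). DESeq2 and limma voom also called 0 of the 9, with 21 and 7 of all 13500 genes called. Each gave an unadjusted p under 0.05 for 1 of the 9, beside 461 and 534 of all genes. Genotypes did not overlap for 1 of the 9, *Bbc3*, beside 9.09% of all genes. In log2 fold change, 2 genes were above 0 and 7 below, with a median of -0.03 for the 9 and -0.01 for all genes.

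**Figure D2:**
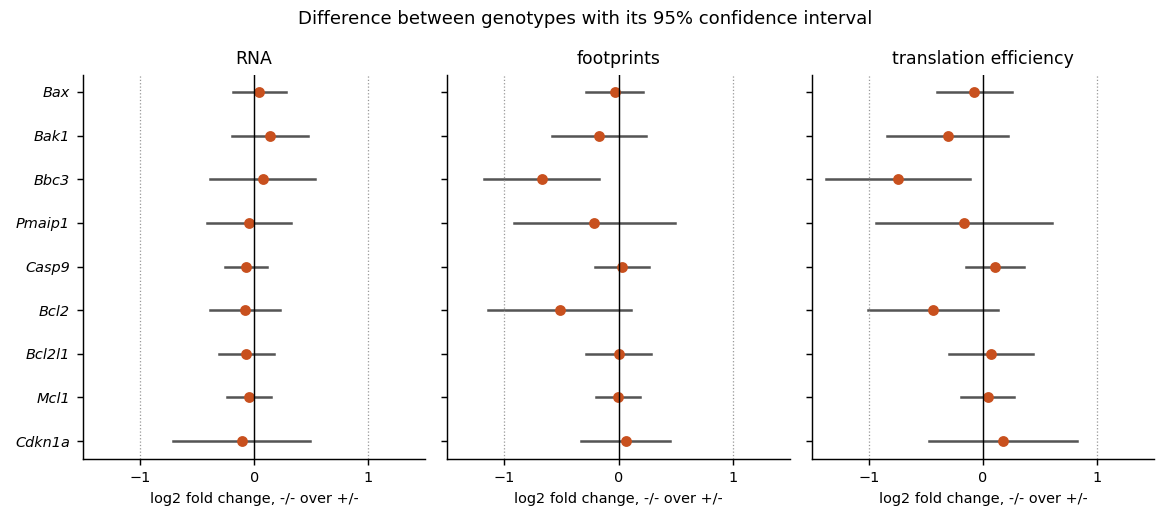
Log2 fold change of each gene between *Mael*-/- and *Mael*+/- testes in RNA, footprints and translation efficiency, with points at the edgeR estimate, bars for the 95% confidence interval and dotted lines at a 2-fold difference. In RNA all 9 bars lie between the dotted lines and cross 0. The bar of *Bbc3* lies below 0 in footprints and in translation efficiency. Bars of translation efficiency are from the main, unpaired fit.

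The precision of these comparisons differed between genes and assays. In RNA, the intervals of 9 of 9 genes lay within a 2-fold difference either way, as did those of 88.6% of all genes, and 8 lay within 1.5-fold. In footprints, 7 of 9 lay within 2-fold (90.7% of all genes) and 5 within 1.5-fold. The exceptions in footprints were *Bbc3* and *Bcl2*, whose intervals reached beyond a 2-fold decrease. The SE of a log2 fold change lay between 0.08 and 0.27 for RNA and between 0.09 and 0.32 for footprints. In the main fit of translation efficiency, described below, 7 of 9 lay within 2-fold (86.9% of all genes) and 4 within 1.5-fold. The intervals of *Bbc3* and *Bcl2* again reached beyond a 2-fold decrease, and the SE lay between 0.11 and 0.36.

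The second question was whether these mRNAs were translated differently. Translation efficiency was tested as the difference of footprints between genotypes beyond that of RNA, over all 12 libraries. This main fit had no term for the extract that RNA and footprints shared, and the paired fit was an alternative. edgeR called 0 of the 9 genes and 0 of all 13448 genes (0%). An unadjusted p under 0.05 was found for 1 of the 9, *Bbc3*, and for 0.394% of all genes (53 genes in edgeR, 28 in DESeq2 and 47 in limma voom, none called by any of them). With each extract as a paired block, unadjusted values below 0.05 were more common, at 281 of all 13448 genes against 53 in the main edgeR fit. The 281 again included 1 of the 9, *Bbc3*, and 0 genes were called. The 0.394% of the main fit is far below the share of 0.05 that p-values without any difference would give. That fit was therefore conservative, and its 0 calls do not show equal translation. The values of the genotypes did not overlap for 1 of the 9, beside 6.26% of all genes. In log2 fold change, 4 genes were above 0 and 5 below, with a median of -0.08 beside 0.00 for all genes.

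*Bbc3* had a log2 difference in translation efficiency of -0.75 (SE 0.29, interval -1.38 to -0.12), with an unadjusted p of 0.0233 and an adjusted p of 1 in edgeR. Expressed per length, its footprints over RNA were 2.03, 2.08 and 1.88 on the log2 scale in *Mael*+/- extracts and 1.14, 1.04 and 1.55 in *Mael*-/- extracts. All 3 *Mael*-/- extracts were lower. With extracts paired, the log2 difference was -0.75 (SE 0.24, interval -1.25 to -0.25), at an unadjusted p of 0.00525 and an adjusted p of 1. Libraries were left out in the unpaired fit only. Without both libraries of *Mael*+/- extract 1, the extract rich in pachytene markers, the unpaired log2 difference was -0.74. The unadjusted p of the unpaired edgeR fit rose above 0.05 when any of 3 libraries was left out. These were *Mael*+/- RNA replicate 1 (0.0517), *Mael*-/- RNA replicate 2 (0.0562) and *Mael*+/- footprint replicate 3 (0.0685).

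The other 8 genes had intervals that included 0, also with extracts paired. In the paired fit *Bak1* had -0.29 (SE 0.16) and *Bcl2* -0.43 (SE 0.27). The values that follow are from the main, unpaired fit. *Bcl2* had a log2 difference of -0.44 (SE 0.27) and *Bak1* of -0.31 (SE 0.25). *Cdkn1a* had 0.17 (SE 0.30) and *Pmaip1* -0.17 (SE 0.36). *Casp9* had 0.11 (SE 0.12), *Bax* -0.08 (SE 0.15), *Bcl2l1* 0.07 (SE 0.17) and *Mcl1* 0.04 (SE 0.11).

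The footprint level relative to RNA was then described within each genotype, with footprints per kb of coding sequence divided by RNA per kb of mRNA. Across 13380 genes the median was 0.87 on the log2 scale in *Mael*+/- testes, or 1.83-fold, and without division by length it was -0.08. The 0 of this scale has no meaning of its own, so values are read against the median gene. *Bcl2l1* (0.85), *Bax* (0.89), *Casp9* (0.91) and *Bak1* (0.94) lay close to that median. *Bcl2* was at 1.24 and *Mcl1* at 1.66. *Bbc3*, at 3.99-fold, and *Pmaip1*, at 4.09-fold, lay at the 90.3 and 90.8 percentiles.

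*Cdkn1a* stood apart from the other members in this ratio. It had log2 values of 3.79, 4.35 and 3.98 in *Mael*+/- extracts and 4.11, 4.35 and 4.06 in *Mael*-/- extracts. The lowest of the 6 extracts was at 3.79, whereas no extract of another member exceeded 2.79. The means corresponded to ratios of 16.5 in *Mael*+/- and 18.1 in *Mael*-/- testes, which were 9.0 and 9.9 times the ratio of the median gene, at the 99.6th and 99.7th percentiles of all genes. The low RNA counts of *Cdkn1a*, 34 to 63 per library, are the denominator of this ratio. Taking the lengths of 1 representative transcript in place of all annotated exons gave 8.88 times the median gene and the 99.6th percentile in *Mael*+/- testes. Without any correction for length, *Cdkn1a* was still at the 98.8th percentile.

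For other members the length correction decided the rank. *Bcl2* has an annotated 3′ UTR of 5088 bases, and its representative transcript has 1410 bases and 11 ATG triplets before the start codon. Without correction for length it was at the 1.95th percentile of footprints over RNA, and per length at the 69.1th. *Bcl2l1* moved from 1.80-fold to 0.970-fold when 1 representative transcript was used for its length, and *Bbc3* from 3.99-fold to 3.26-fold. The annotation that the authors counted on is not given in the sources used here, so ranks that depend on length are less certain than the differences between genotypes, where length cancels.

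**Figure D3:**
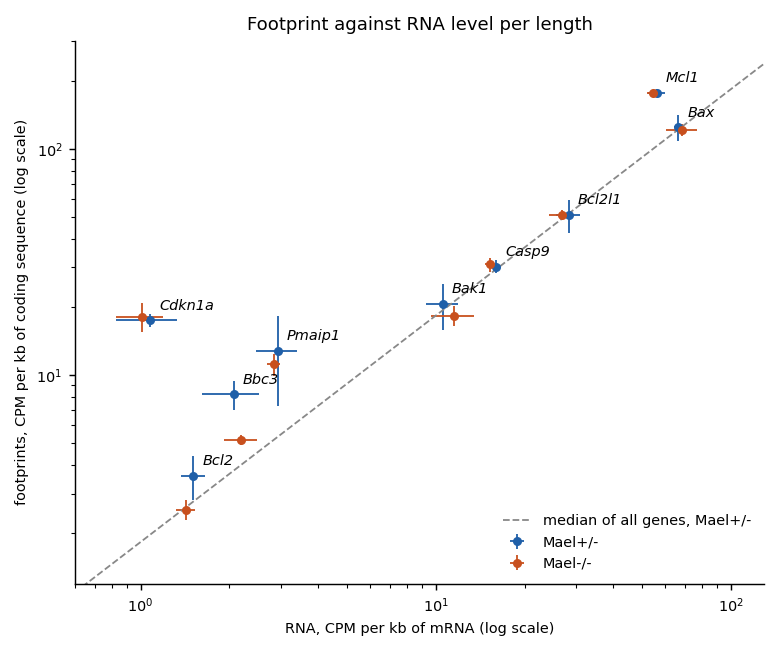
Footprint level (CPM per kb of coding sequence) against RNA level (CPM per kb of mRNA) on log axes, with points at the mean of 3 replicates, error bars of 1 SD and a dashed line at the median ratio of all genes in *Mael*+/- testes. *Bax*, *Bcl2l1*, *Casp9* and *Bak1* lie near the line, and *Cdkn1a*, the lowest in RNA, lies far above it in both genotypes.

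**Figure D4:**
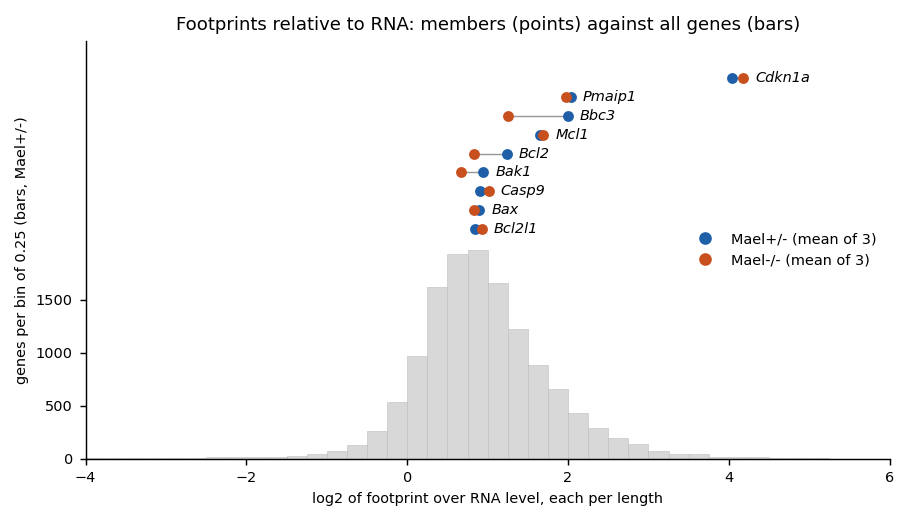
Histogram of the log2 of footprint over RNA level, each per length, for 13380 genes in *Mael*+/- testes (bars, genes per bin), with the mean of 3 extracts of each genotype for the 9 genes (points, placed at separate heights for legibility). *Cdkn1a* lies in the far right tail at 4.04 and 4.17, and *Bbc3* has the widest gap between genotypes, 3.99-fold in *Mael*+/- and 2.37-fold in *Mael*-/- testes.

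*Cdkn1a* was also the most variable of the 9 genes over the 6 RNA libraries, with an SD of 0.23 in log2 CPM beside 0.21 for *Bbc3*. It also had the fewest RNA counts of the 9, 34 to 63 per library, and how much of this spread is counting error was not tested. The genes whose pattern over the 12 libraries was most like it were *Atxn2*, *Rps6ka3* and *Mpzl1*, with root-mean-square differences of 0.0861, 0.0911 and 0.0943 in log2 CPM after centring within each assay. The median gene of the 11235 compared differed by 0.221, and the pattern of *Cdkn1a* itself had a root-mean-square of 0.175.

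The wider pathway was read from 5 lists with 95 distinct genes beyond the 9: other BCL-2 family genes, caspases with the apoptosome and its inhibitors, p53 with its regulators, other p53 targets, and other CDK inhibitors. In RNA, edgeR called 0 of the 84 tested, and 6 (7.14%) had an unadjusted p under 0.05, near the 5.40% of all genes. In footprints it called 0 of 82, with 3 (3.66%) at an unadjusted p under 0.05, near the 4.33% of all genes. In translation efficiency it called 0 of 82, with 0 at an unadjusted p under 0.05, beside 0.394% of all genes. The median log2 fold change over these genes was 0.03 in RNA and 0.06 in footprints, beside 0.00 and -0.01 for all genes.

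In the BCL-2 family list, 8 of the 11 genes tested in RNA were above 0 and 3 below. *Bik*, a BH3-only gene, had a log2 fold change of 0.34 (SE 0.14) and *Bcl2l11*, which encodes BIM, 0.15 (SE 0.10). At the other end, *Bad* had -0.12 (SE 0.12) and *Hrk* -0.07 (SE 0.30). *Bik* had an unadjusted p of 0.0348 and an adjusted p of 0.901 in edgeR.

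In the list of caspases and their partners, 17 of 28 genes were above 0 and 11 below in RNA. The inflammatory caspase *Casp4* had the highest value, 1.03 (SE 0.43), from a mean of 10 counts per RNA library, and was not tested in footprints. *Birc3*, an inhibitor of apoptosis, had 0.16 (SE 0.16). *Cyct*, the cytochrome c of male germ cells, had the lowest value, -0.70 (SE 0.31) in RNA and -1.09 (SE 0.37) in footprints, at adjusted p of 0.923 and 0.998 in edgeR. The pachytene markers had negative medians in the same contrasts, -1.08 in RNA and -0.88 in footprints. Without *Mael*+/- extract 1, *Cyct* had -0.17 (SE 0.16) in RNA and -0.37 (SE 0.16) in footprints, beside pachytene medians of -0.43 and -0.26. The part of cell composition in the value of *Cyct* was not tested. The death receptor *Fas* had -0.31 (SE 0.27) and is also on the list of p53 targets.

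Of p53 and its regulators, 6 of 14 genes were above 0 and 8 below in RNA. The DNA damage kinases *Chek1* (0.17, SE 0.10) and *Atm* (0.11, SE 0.10) had the highest log2 fold changes, and *Atr* (-0.46, SE 0.20) and *Hipk2* (-0.17, SE 0.15) the lowest. Without *Mael*+/- extract 1, *Chek1* had 0.23 (SE 0.10) and *Atm* 0.16 (SE 0.10) in RNA, both farther from 0. *Atr* had -0.14 (SE 0.10) and *Hipk2* -0.05 (SE 0.14) without it, both nearer to 0. *Trp53*, which encodes p53 and is named here after its values were seen, had 0.02 (SE 0.10) in RNA and 0.10 (SE 0.10) in footprints.

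Of the other p53 targets, 19 of 28 genes were above 0 and 9 below in RNA, with a median of 0.06. The kinase gene *Plk2* had 0.30 (SE 0.11) and the peptide transporter gene *Tap1* 0.28 (SE 0.21). After *Fas*, the lowest was *Mdm2*, the ubiquitin ligase that restrains p53, at -0.15 (SE 0.12). In footprints, 17 of these genes were above 0 and 11 below. *Sesn2*, named after its values were seen, was the 1 target with an unadjusted p under 0.05 there, at a log2 fold change of 0.28 (SE 0.12) and an adjusted p of 0.998 in edgeR.

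Of the other CDK inhibitors, 5 of 7 genes were above 0 in RNA and 2 below. *Cdkn2b*, which encodes p15, had 0.36 (SE 0.13) in RNA and 0.33 (SE 0.14) in footprints, at adjusted p of 0.852 and 0.998 in edgeR. *Cdkn1c* had 0.19 (SE 0.12), and the lowest pair was *Cdkn2c* at -0.09 (SE 0.15) and *Cdkn2a* at -0.02 (SE 0.12).

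**Figure D5:**
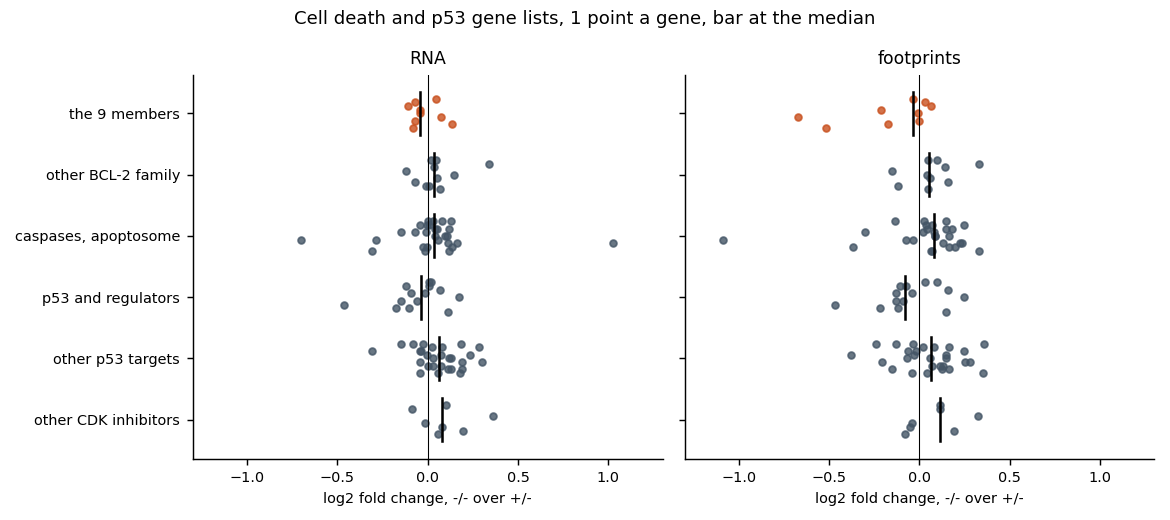
Log2 fold change between *Mael*-/- and *Mael*+/- testes in RNA and in footprints for the 9 genes (orange) and 5 lists of related genes (dark blue-grey), with 1 point per gene tested and a bar at the median of each list. Medians lie near 0; *Casp4* (1.03, RNA only) and *Cyct* (-0.70 in RNA, -1.09 in footprints) are the points farthest out.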

How the data were processed

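RNA libraries were made from total RNA depleted of ribosomal RNA with a stranded kit, and footprints by digestion with micrococcal nuclease. Per the submitters' processing notes and the study's methods, the authors removed footprint reads of ribosomal DNA with Bowtie 1.2.2, aligned all reads to mm10 with STAR 2.6.0c and counted with featureCounts (Subread 1.6.4), over mRNA for RNA and over coding sequence for footprints. Removal of duplicate reads is not given in the sources used here. The deposited table holds raw counts. Result tables of the authors' DESeq2 1.24.0 analyses, with fold changes and p-values, were not used.

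Gene rows were tested in edgeR 4.0.16 (R 4.3.3) with glmQLFit and glmQLFTest, the quasi-likelihood F-test, on TMM-scaled libraries of an assay after filterByExpr, with Benjamini-Hochberg adjustment over all genes tested. RNA and footprints were fitted over 6 libraries each. For translation efficiency the 12 libraries were fitted together, with the genotype-by-assay interaction as its test and no term for the extract. Calls used an adjusted p of 0.05. Intervals are at 95%. Alternatives were DESeq2 1.42.0, limma 3.58.1 (voom), median-of-ratios size factors, other filters, a replicate block and leaving out each replicate. With 3 against 3, an exact permutation test of 1 gene cannot go below p = 0.1, so none is given. The fits were also run on simulated counts drawn independently for each library. That simulation held no effect shared within an extract, so it cannot show how the translation efficiency fit handles pairs.

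RNA and footprints of the same genotype and number came from the same extract. Their deviations from the group mean correlated over 11235 genes at 0.81, 0.67 and 0.73 in *Mael*+/- and 0.27, 0.29 and 0.28 in *Mael*-/- extracts, above the limit of 0.1 for treating them as pairs. No replicate pair held identical counts.

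Lengths came from RefSeq exons of GRCm38.p6, with 20389 of 20620 genes matched. The lists of related genes and the members were chosen with earlier results of these data known. Of each list, the text names every called gene or else the 2 highest and 2 lowest in RNA log2 fold change. For the most variable member, it names the 3 genes most alike, among those with a mean of at least 50 counts in each assay, on log2 CPM with 0.5 added.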

Additional observations from a re-analysis of the deposited data

How the results depend on the processing

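Across 379 recomputed log2 fold changes of the 9 genes, 351 kept their sign, 28 changed it and none passed the threshold, the lowest adjusted p being 0.505. The count of members called stayed at 0 in RNA, footprints and translation efficiency under every alternative run. Signs turned in 16 of the 27 estimates, the farthest from 0 being *Pmaip1* in footprints at -0.21. *Bcl2l1* in footprints was 0.0135 with limma voom, 0.00711 with the replicate block and 0.00192 with a mean of at least 50 counts. *Mcl1* in translation efficiency was -0.018 without *Mael*+/- extract 1, an alternative chosen after seeing the data. Leaving out single replicates moved RNA log2 fold changes from -0.020 to 0.13 for *Bax*, -0.041 to 0.27 for *Bbc3*, -0.15 to 0.081 for *Pmaip1*, -0.13 to 0.014 for *Bcl2l1* and -0.29 to 0.018 for *Cdkn1a*. In footprints the ranges were -0.11 to 0.073 for *Bax*, -0.34 to 0.0073 for *Bak1*, -0.50 to 0.055 for *Pmaip1*, -0.018 to 0.086 for *Casp9*, -0.13 to 0.10 for *Bcl2l1*, -0.027 to 0.028 for *Mcl1* and -0.061 to 0.16 for *Cdkn1a*. In translation efficiency they were -0.17 to 0.028 for *Bax*, -0.46 to 0.10 for *Pmaip1* and -0.063 to 0.17 for *Bcl2l1*. Among all genes, 17 were called in RNA by edgeR, 58 by DESeq2, 4 with a mean of at least 50 counts, and 2 to 64 when a replicate was left out, the 64 without *Mael*+/- RNA replicate 1. In footprints these counts were 8, 21, 1 and 2 to 17. With the replicate block they were 50 in RNA and 23 in footprints. Replicates of the 2 genotypes with the same number shared only that number: their deviations correlated at 0.29, -0.04 and 0.20 in RNA and at 0.09, 0.29 and 0.06 in footprints, and 3 of 6 RNA and 4 of 6 footprint libraries correlated best with their own number. The paired value changed no call. The gene lengths of 1 representative transcript, also chosen after seeing the data, moved the footprint over RNA ratio of *Bbc3* and *Bcl2l1* by more than 1 SD. Low counts limit *Bcl2*, *Pmaip1* and *Bbc3* in footprints and *Cdkn1a* in RNA. The causes were not tested.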
